A study of Mus musculus with 22 samples.

Results

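The response of the unmodified left ventricle to 2 weeks of pressure overload was read from 8 libraries, chosen by their labels out of 22 in the series. They were 4 wild type hearts 2 weeks after transverse aortic constriction (TAC) and 4 wild type hearts 2 weeks after a sham operation. TAC is a surgical narrowing of the aortic arch, and the sham operation is the control surgery without it. All mice were of the FVB strain, 3 to 5 months old, and neither group carried the transgene that the rest of the series studies, which expresses valosin-containing protein (VCP). Transcripts are given in TPM (transcripts per 1000000), which sum to 1000000 in every library, so a level is a share of the library and the read depth is unknown. The labels do not say that the libraries came from separate animals, and p-values reflect only how these libraries vary. In bulk tissue, fewer cells of a type and less RNA per cell cannot be told apart.

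A ventricle that pumps against raised pressure thickens, and its myocytes are known to return in part to a gene programme of the fetal heart. Textbook signs are higher mRNA of the natriuretic peptides (Nppa, Nppb), of skeletal actin (Acta1) and of the slow beta myosin heavy chain (Myh7), with less of the fast alpha chain (Myh6). Fuel use moves from fatty acids towards glucose, and fibroblasts lay down collagen. The comparison of TAC with sham asks which of these, and which other genes, differed in these hearts.

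Libraries that stood apart are given before the results. TAC replicate 1 held 1546 TPM of Myl7, the atrial regulatory light chain, against 0.773 to 55.6 TPM in the other 7 libraries. The 18 atrial myocyte markers summed to 10612 TPM in it and to 263 to 466 TPM elsewhere. Lymphocyte markers (320 TPM against 25.9 to 49.8), macrophage markers (538 against 195 to 277) and mesothelial markers (203 against 35.2 to 64.3) were also highest there. Its ventricular markers summed to 4917 TPM, below the 6692 to 11838 TPM of the others. Vcp, which neither group carries as a transgene, stood at 119 TPM in it and at 45.7 to 82.6 TPM elsewhere. The main results below are therefore given with and without TAC replicate 1. Lung and thymus markers summed to between 2.25 and 4.36 TPM, so those tissues were close to absent in all 8 libraries.

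Sham libraries were uneven too. The median gene's SD on the log2 scale was 0.317 among the sham and 0.202 among the TAC libraries. Transcripts of the 13 genes of the mitochondrial genome made up 46.0% to 56.8% of TPM in sham and 55.5% to 60.9% in TAC. That difference of 6.53 percentage points had p = 0.114 in a two-sided exact permutation test (n = 4 and 4, smallest possible p 0.0286). It was 7.10 points without TAC replicate 1 (exact permutation p = 0.171) and 2.38 points (exact permutation p = 0.429) when identifiers that the annotation does not list were left out of the total.

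Of 13709 genes tested, 99 were higher and 865 lower after TAC (limma on log2(TPM + 1), adjusted p under 0.05). That is 7.03% of the genes tested, 0.722% higher and 6.31% lower. Without TAC replicate 1, 40 genes were higher (0.297% of 13457) and 383 lower (2.85%), together 3.14%. These shares of all genes are the background for the list counts that follow. In a fit of all 4 groups of the same table, which adds the VCP transgenic libraries, limma made 0 calls (1773 genes had an unadjusted p under 0.05), so none of the calls named here held in it. Both fits with wild type libraries alone shared 31 higher and 338 lower genes. All 956 genes past the test that could be tested again kept their direction without that replicate. The groups did not overlap at all for 2393 genes, or 17.5% (2.11% higher, 15.3% lower), and for 3322, or 24.7% (2.64% higher, 22% lower), without TAC replicate 1. The median of all genes fell by 0.16 on the log2 scale, and the split between higher and lower genes moved with the scaling. Lower genes made up 89.7% of the calls as deposited, 49.0% of 635 calls after quantile normalization (4.63% of genes, 2.36% higher and 2.27% lower), 34.4% of 663 after centring on the median gene, and 54.5% of 33 after correction for GC content and transcript length. The number of calls also rested on single libraries. It was 423, 178, 49 and 225 without TAC replicates 1, 2, 3 and 4, and 70 and 2148 without sham replicates 3 and 4. Of the 110 genes named in the text that passed, 19 passed in all 8 fits that left out a library, and 8 of those also passed after correction for GC content and length.

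**Figure D1:**
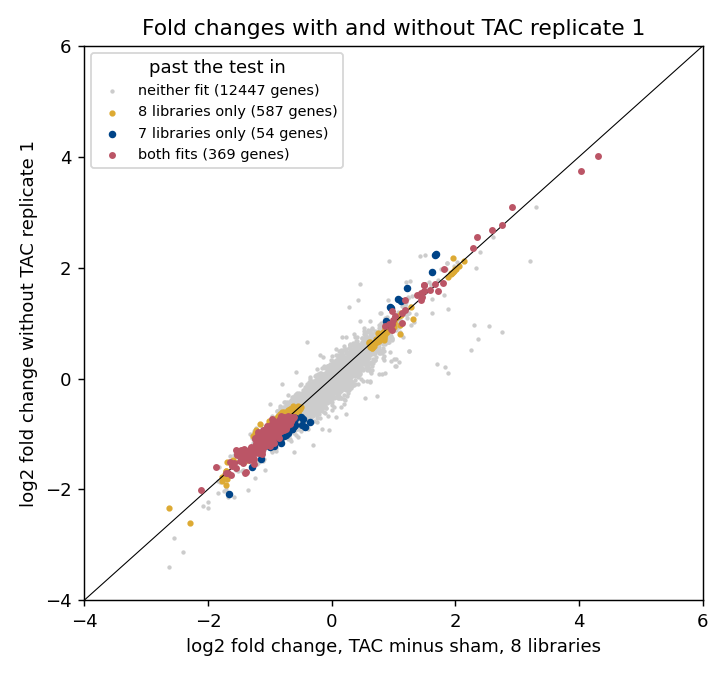
Log2 fold change (TAC minus sham) of each gene in the fit of 8 libraries (x axis) and in the fit of 7 without TAC replicate 1 (y axis), coloured by the fits in which it passed the test, with the line of equal values. The 369 genes past the test in both fits lie near the line, and the 587 genes past it with 8 libraries only keep their side of 0. Grey points far below the line on the right were not past the test.

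The classical markers of load did not rise as a group. Of 25 tested members of a list of hypertrophy and fetal genes, 0 were higher (background 0.722%) and 3 were lower: Myh7, Myh6 and Ankrd23. Nppa, which encodes atrial natriuretic peptide, measured 20.4, 39.9, 52.4 and 20.6 TPM in sham replicates 1 to 4, and 5174, 32.5, 74.5 and 88.6 TPM in TAC replicates 1 to 4. The groups overlapped, and the TAC value of 5174 came from the library rich in atrial transcripts. Without it Nppa averaged 65.2 ± 29.2 TPM (SD, n = 3) against 33.3 ± 15.6 in sham (n = 4), a log2 difference of 0.94 with a limma adjusted p of 0.216. Nppb, the brain natriuretic peptide, spanned 30.4 to 167 TPM in sham and 56.3 to 345 TPM in TAC (adjusted p = 0.853), and its difference turned from 0.25 to -0.32 without TAC replicate 1. Acta1 stood at 173, 364, 294 and 666 TPM in sham and 90.3, 173, 203 and 260 TPM in TAC, with overlap, and did not pass (-0.97, adjusted p = 0.176, and 0.316 without TAC replicate 1). Atp2a2, the calcium pump of the sarcoplasmic reticulum, and Col1a1, the main fibrillar collagen, did not pass either (adjusted p = 0.733 and 0.775). Col1a1 reached 41.9 TPM in TAC replicate 1 and 5.92 to 12.7 TPM in the other 7 libraries. Vcp differed by 0.00 (adjusted p = 0.993), and by -0.31 (adjusted p = 0.374) without TAC replicate 1.

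**Figure D2:**
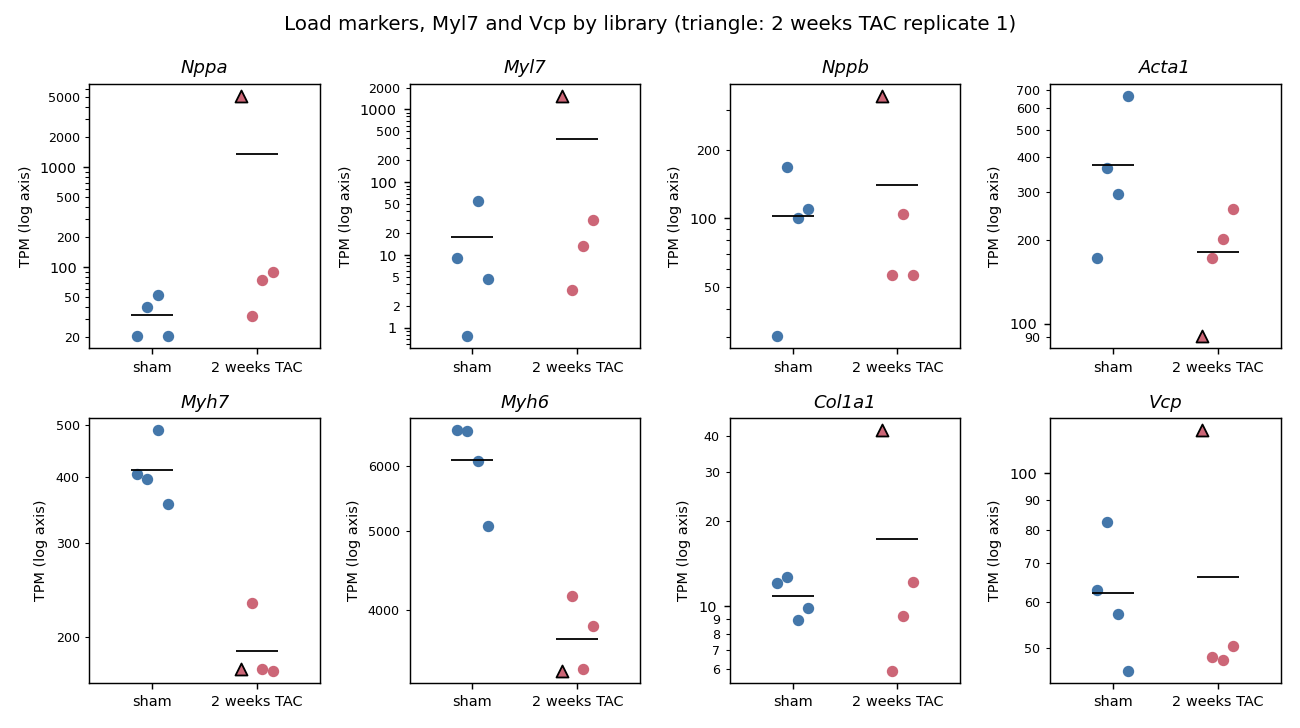
TPM (log axis) of 6 load markers, the atrial light chain gene Myl7 and Vcp in each sham and TAC library, with bars at the group means and a triangle for TAC replicate 1. For Nppa, Myl7, Nppb, Col1a1 and Vcp the triangle lies above every other library, and the TAC mean is set by it. Myh7 and Myh6 are lower in all 4 TAC libraries than in any sham library.

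The myosin heavy chains moved together, and downward. Myh7, the slow ventricular chain, measured 404, 396, 489 and 356 TPM in sham and 174, 232, 174 and 173 TPM in TAC. The groups did not overlap. Its log2 change was -1.12 ± 0.18 (standard error, limma adjusted p = 0.0136), -1.09 without TAC replicate 1 (adjusted p = 0.0284) and -1.02 after correction for GC content and length (adjusted p = 0.0408). Without sham replicate 3 or TAC replicate 3 it no longer passed, with changes of -1.04 and -1.09. Nor did it pass with the correction when TAC replicate 1 was left out. Myh6, the fast chain that dominates the adult mouse ventricle, was at 6629, 6613, 6087 and 5063 TPM in sham and at 3374, 4158, 3390 and 3826 TPM in TAC. It fell by 0.72 on the log2 scale (adjusted p = 0.0325) but missed the threshold without TAC replicate 1 (adjusted p = 0.0626). Myh7b, a further myosin gene of slow muscle and heart, fell further. It stood at 74.3, 80.8, 92.8 and 80.9 TPM in sham and 15.5, 35.2, 31.7 and 31.7 TPM in TAC, a log2 change of -1.55 ± 0.24 (adjusted p = 0.012). It was lowest in TAC replicate 1, and without it the change was -1.29 (adjusted p = 0.0152). With correction for GC content and length it was -0.98 and did not pass (adjusted p = 0.103).

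Myh7 (GRCm38 chr14:54970684-54994626, minus strand) and Myh7b (chr2:155611212-155634307, plus strand) each carry a microRNA in an intron, miR-208b and miR-499. Both microRNAs are known to take part in the control of slow muscle genes. Their mature sequences, from RefSeq on GRCm38.p6, are shown because the host transcripts are the myosin genes that fell. Capitals mark the seed, bases 2 to 8, which pairs with target mRNAs. The seeds share 6 of 7 bases. The poly(A)-selected libraries measured the hosts, not these microRNAs.
miR-499-5p, chr2:155622893-155622913, plus strand: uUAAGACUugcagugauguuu
miR-208b-3p, chr14:54975710-54975731, minus strand: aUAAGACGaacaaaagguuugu

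Other genes of the contractile apparatus were lower with them. Of 30 sarcomere and Z-disc genes, 7 fell, with Myh7 counted again among them, and 0 rose (23.3% lower, against 6.31% of all genes). The list's median change was -0.41 against -0.16 for all genes. Without TAC replicate 1, 2 of 30 were lower, Myh7 among them, against 2.85% of all genes. With correction for GC content and length 1 was lower, which was Myh7. Mybpc3, the myosin binding protein of the thick filament, fell from 317 to 455 TPM in sham to 178 to 251 TPM in TAC (-0.83, adjusted p = 0.0313), and Ldb3, a Z-disc protein, from 317 to 391 TPM to 188 to 248 TPM (-0.70, adjusted p = 0.0389). Neither passed without TAC replicate 1.

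Some genes of excitation and calcium entry were lower as well. Of 25 calcium handling genes 5 fell, and of 27 ion channel genes 4 fell, with 0 higher in either (20% and 14.8% lower, against 6.31% of all genes). In the fit without TAC replicate 1, 3 of each list were lower, and 0 and 1 with correction for GC content and length. The median change of the calcium list was -0.19, close to the -0.16 of all genes, and its summed level was 2875 to 4905 TPM in sham and 3535 to 4470 TPM in TAC. Cacna1c, the pore of the L-type calcium channel, measured 120, 138, 139 and 130 TPM in sham and 51.0, 73.0, 68.6 and 62.8 TPM in TAC. No TAC library reached a sham value, and the log2 change was -1.04 (adjusted p = 0.0136, and 0.0263 without TAC replicate 1). Jph2, the junctophilin that holds the transverse tubule to the sarcoplasmic reticulum, fell too (-1.01, adjusted p = 0.0194), as did Itpr2, a receptor for inositol trisphosphate (-0.90, adjusted p = 0.0213). Kcnk3, a background potassium channel, fell from 50 to 66.2 TPM to 21.8 to 37.0 TPM (-0.92, adjusted p = 0.0259). All 4 genes passed without TAC replicate 1, and none of them after correction for GC content and length.

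Kcnj11 was the channel gene that did. It encodes Kir6.2, the pore of the potassium channel that opens when ATP falls. Its levels were 35.4, 35.8, 36.6 and 22.0 TPM in sham and 8.19, 14.1, 10.9 and 13 TPM in TAC. Sham replicate 4 was the lowest of its group and still above every TAC library. The log2 change was -1.41 ± 0.21 (adjusted p = 0.012), -1.27 without TAC replicate 1 (adjusted p = 0.0235) and -1.16 with the correction (adjusted p = 0.0408). Kcnj11 passed in each of the 8 fits that left out a library. It did not pass when the correction was combined with leaving out TAC replicate 1.

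Some genes at several steps of fuel handling were lower. Of 36 genes of fatty acid uptake and oxidation 6 fell, of 29 of glycolysis and glucose uptake 7 fell, and of 27 regulators of mitochondrial biogenesis 5 fell. In all 3 lists 0 were higher. The lower shares were 16.7%, 24.1% and 18.5%, against 6.31% of all genes. The counts were 2, 4 and 2 without TAC replicate 1, against 2.85% of all genes. The summed levels overlapped between the groups for fatty acid genes (5158 to 9828 TPM in sham, 4788 to 7557 TPM in TAC) and for glycolytic genes (5768 to 8959 and 6071 to 7874 TPM). The TAC means of these sums, leaving out TAC replicate 1, were above those of sham, at 6980 against 6813 TPM and at 7418 against 7283 TPM. Slc27a1, a transporter that brings long-chain fatty acids into the cell, stood at 20.3, 30.1, 27.9 and 19.8 TPM in sham and 8.27, 10.1, 8.67 and 9.34 TPM in TAC. The 4 TAC values lay close together and below all sham values. Its log2 change was -1.32 ± 0.17 (adjusted p = 0.012), -1.28 without TAC replicate 1 (adjusted p = 0.0196) and -0.91 with correction for GC content and length (adjusted p = 0.0374). Acacb, the carboxylase that makes the malonyl-CoA that restrains fatty acid entry into mitochondria, fell from 42.2 to 57.9 TPM to 15.5 to 29 TPM (-1.11, adjusted p = 0.0183, and 0.0346 without TAC replicate 1). Plin4, a lipid droplet protein also on the adipocyte list, measured 40.9, 41.2, 95.3 and 55.3 TPM in sham and 16.7, 22.8, 14.8 and 24.5 TPM in TAC (-1.45, adjusted p = 0.0194, and 0.0421 without TAC replicate 1). Adipocyte markers summed to 295 to 514 TPM in sham and 228 to 266 TPM in TAC, and their part in the Plin4 result was not tested.

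The glycolytic members that fell included kinases at committed steps. Hk2 (hexokinase 2) fell from 41.4 to 58.2 TPM to 18.4 to 32.1 TPM, Pfkm (muscle phosphofructokinase) from 83.8 to 117 TPM to 40.6 to 62.1 TPM, Pfkl (its liver form) from 19.4 to 24.5 TPM to 8.65 to 12.7 TPM, and Pkm (pyruvate kinase) from 167 to 216 TPM to 95.0 to 116 TPM. Their adjusted p-values were 0.027, 0.0217, 0.0176 and 0.0194, and these 4 also passed without TAC replicate 1. Members of both fuel lists were lower, and no member of either rose. With correction for GC content and length 0 glycolytic genes and 1 fatty acid gene, Slc27a1, passed (background 0.131% lower). Slc27a1 did not pass with the correction when TAC replicate 1 was left out.

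Esrra, the nuclear receptor ERR alpha that drives mitochondrial and fatty acid genes, measured 21.8, 22.9, 19.7 and 16.4 TPM in sham and 7.92, 10.1, 10.6 and 9.22 TPM in TAC. Every TAC value lay below every sham value, with a log2 change of -1.02 ± 0.16 (adjusted p = 0.0136, and 0.0292 without TAC replicate 1). It kept its call without any one library, and lost it with correction for GC content and length (-0.69, adjusted p = 0.0591). Its relative Esrrb and its muscle cofactor Perm1 were lower too (-0.77 and -0.86, adjusted p = 0.0281 and 0.0397), but not past the test without TAC replicate 1. Sirt3, the deacetylase of the mitochondrial matrix, fell by 0.89 on the log2 scale (adjusted p = 0.0213). Mief2, which recruits the fission GTPase to mitochondria, stood at 5.87, 8.26, 10.3 and 10.1 TPM in sham and 3.11, 2.83, 3.14 and 3.22 TPM in TAC (-1.22, adjusted p = 0.012). Spg7, a protease of the inner membrane, fell by 0.82 (adjusted p = 0.0136). Sirt3, Mief2 and Spg7 also passed without TAC replicate 1. With correction for GC content and length none of them passed, and 0 of the 27 biogenesis regulators were lower.

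**Figure D3:**
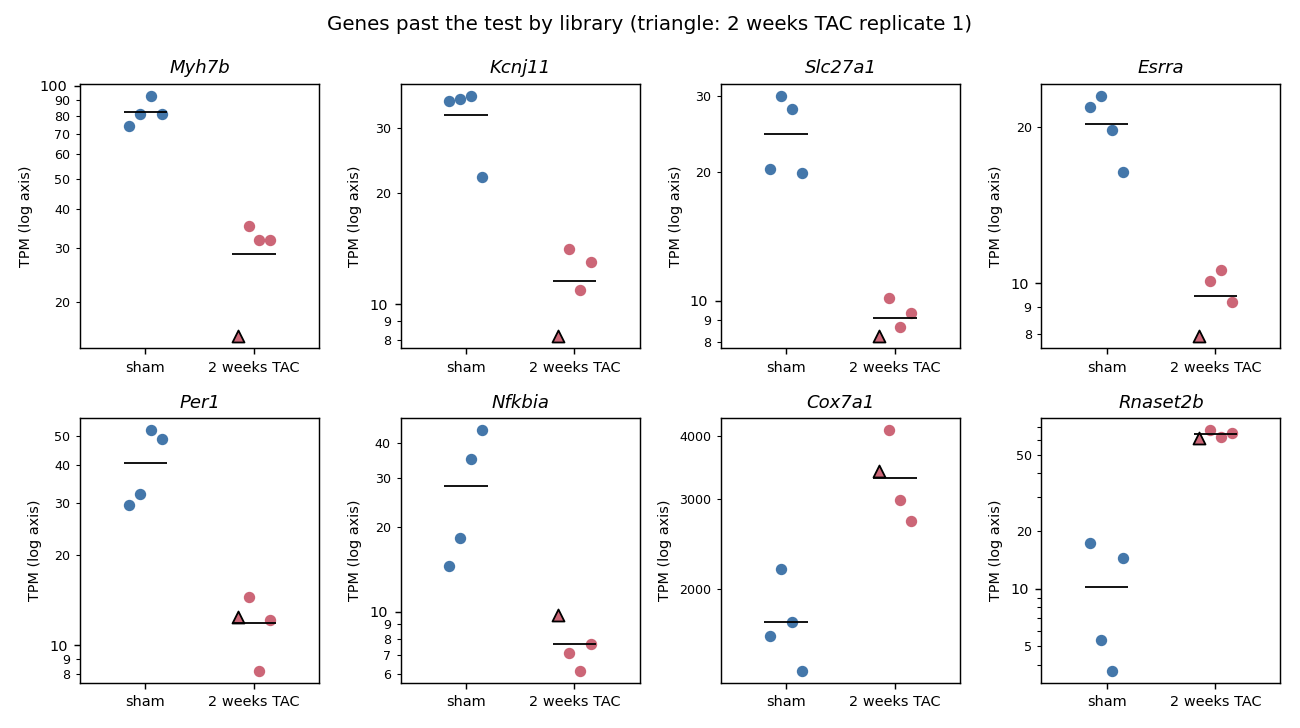
TPM (log axis) of 8 genes that passed the test, in each sham and TAC library, with bars at the group means and a triangle for TAC replicate 1. In all 8 panels the groups do not overlap: 6 genes are lower and Cox7a1 and Rnaset2b higher in every TAC library. Per1 and Nfkbia show 2 sham libraries above the other 2.

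Few genes of the respiratory chain passed the test. Of 82 nuclear-encoded subunits 2 rose, with 0.722% of all genes higher, and 1 fell (1.22% lower, against 6.31% of all genes). The median change was 0.15, against -0.16 for all genes. With TAC replicate 1 left out, 0 rose and 1 fell. The summed levels of these subunits overlapped, at 26908 to 48968 TPM in sham and 39520 to 49941 TPM in TAC. Their relation to the biogenesis regulators was not tested. Cox7a1, the muscle form of a cytochrome c oxidase subunit, measured 1614, 2188, 1722 and 1381 TPM in sham and 3401, 4094, 2985 and 2717 TPM in TAC. All TAC values exceeded all sham values, with a log2 change of 0.94 ± 0.20 (adjusted p = 0.0273) and of 1.05 after correction for GC content and length (adjusted p = 0.0408). Without TAC replicate 1 it just missed the threshold (0.92, adjusted p = 0.0514). Ndufa12, a complex I subunit, rose from 136 to 323 TPM to 396 to 465 TPM (1.13, adjusted p = 0.0316) and, at 0.0514, missed it likewise. Uqcrc1, a core protein of complex III, went the other way. It stood at 470, 455, 421 and 334 TPM in sham and 142, 218, 182 and 231 TPM in TAC (-1.13, adjusted p = 0.0176, and 0.0348 without TAC replicate 1).

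Ribosomal protein genes lay on the higher side with few single calls. Of 77 mitochondrial ribosomal genes 2 rose and 0 fell (median 0.15). They were Mrpl42 (141 to 337 TPM in sham, 418 to 492 TPM in TAC, adjusted p = 0.0376) and Mrpl32 (14.3 to 27.3 TPM and 29.6 to 39.0 TPM, adjusted p = 0.0377), and neither passed without TAC replicate 1. Of 79 cytosolic ribosomal genes 0 rose and 1 fell, the retrogene Rps4l, while the list's median was 0.23. After quantile normalization 6 of the 77 mitochondrial and 3 of the 79 cytosolic ribosomal genes were higher.

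Per1, a clock repressor that glucocorticoids also induce, was among the largest falls. It measured 29.4, 32.0, 52.4 and 48.9 TPM in sham and 12.4, 14.5, 8.21 and 12.2 TPM in TAC, a log2 change of -1.68 ± 0.23 (adjusted p = 0.012, and 0.0196 without TAC replicate 1). With correction for GC content and length the change was -1.13 and missed the threshold (adjusted p = 0.0663). Of 22 clock genes 3 fell and 0 rose (13.6% lower, against 6.31% of all genes). The others were Cry2, a second repressor (-0.84, adjusted p = 0.044), and Csnk1d, a kinase of the PER proteins (-0.77, adjusted p = 0.0278). Csnk1d passed without TAC replicate 1 and Cry2 did not. Times of tissue collection are not given in the labels. Nfkbia, the inhibitor of NF-kappaB that its own target induces, stood at 14.5, 18.3, 34.9 and 44.3 TPM in sham and 9.72, 7.14, 6.15 and 7.64 TPM in TAC (-1.62, adjusted p = 0.0213, and 0.037 without TAC replicate 1).

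The sham libraries themselves differed in genes of this kind. Of 19 glucocorticoid responsive genes tested, 2 fell and 0 rose, Per1 and Nfkbia. All 19 lay below the median change of all genes, with a list median of -1.35. Their summed level was 533 and 1003 TPM in sham replicates 1 and 2, 2925 and 2108 TPM in sham replicates 3 and 4, and 341 to 671 TPM in TAC. Sham replicate 1 lay within the TAC range and the other 3 sham libraries above it. Fkbp5, a chaperone that glucocorticoids induce, was picked after its values were seen. It measured 7.59, 5.76, 64.1 and 32.0 TPM in sham and 2.98 to 8.15 TPM in TAC (adjusted p = 0.261). Neutrophil markers also summed to 85.5 and 52.4 TPM in sham replicates 3 and 4, and to 14.1 to 18.7 TPM in the other 6 libraries. Per1 passed in each of the 8 fits that left out a library. Nfkbia lost its call without sham replicate 3 and without TAC replicates 2, 3 or 4.

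Immediate early genes, which answer within minutes to stress or handling, were lower on the whole with few calls. Of 27, 3 fell and 0 rose, and 26 lay below the median of all genes (list median -0.92). Junb was at 3.92, 19.1, 12.9 and 20.4 TPM in sham and 5.13, 1.85, 3.01 and 2.62 TPM in TAC (-1.72, adjusted p = 0.0499). Zfp36, which destabilises inflammatory mRNAs, fell (-1.70, adjusted p = 0.045), as did Csrnp1 (-1.41, adjusted p = 0.0309). Sham replicate 1 was low for all 3 and overlapped the TAC range for Junb and Zfp36. None of these 3 passed without TAC replicate 1. Ccn1, a matricellular protein gene named after its values were seen, did so in that fit only (adjusted p = 0.037, and 0.0731 with 8 libraries).

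Promoters of 3 genes that fell in the fits with and without TAC replicate 1 are printed because each holds the E-box CACGTG, the site of clock and related factors, within 250 bases before to 50 bases after a RefSeq start (GRCm38.p6, in the direction of the gene). Capitals mark the E-box and, in Myh7b, also TGACCTT, which is AAGGTCA, the core site of ERR and other nuclear receptors, on the opposite strand. The 3 were chosen after their values were seen. Mief2, Pfkm and Mad1l1 also fell in both fits and hold the E-box near a start site, and are not printed. Per1 and Slc27a1 have further start sites in the table whose windows lack the E-box.
Per1, chr11:69098699-69098998, plus strand: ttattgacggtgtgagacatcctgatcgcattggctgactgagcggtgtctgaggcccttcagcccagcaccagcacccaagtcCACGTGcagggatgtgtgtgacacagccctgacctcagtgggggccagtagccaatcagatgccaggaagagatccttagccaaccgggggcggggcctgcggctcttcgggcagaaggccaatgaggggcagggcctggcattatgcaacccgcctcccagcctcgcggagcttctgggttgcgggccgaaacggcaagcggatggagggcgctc
Myh7b, chr2:155610993-155611292, plus strand: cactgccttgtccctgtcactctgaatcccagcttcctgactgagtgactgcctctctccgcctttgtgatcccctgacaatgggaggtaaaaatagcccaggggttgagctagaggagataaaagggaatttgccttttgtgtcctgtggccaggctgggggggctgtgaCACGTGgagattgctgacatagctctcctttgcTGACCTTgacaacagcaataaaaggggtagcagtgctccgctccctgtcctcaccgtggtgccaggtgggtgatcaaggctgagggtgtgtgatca
Slc27a1, chr8:71570344-71570643, plus strand: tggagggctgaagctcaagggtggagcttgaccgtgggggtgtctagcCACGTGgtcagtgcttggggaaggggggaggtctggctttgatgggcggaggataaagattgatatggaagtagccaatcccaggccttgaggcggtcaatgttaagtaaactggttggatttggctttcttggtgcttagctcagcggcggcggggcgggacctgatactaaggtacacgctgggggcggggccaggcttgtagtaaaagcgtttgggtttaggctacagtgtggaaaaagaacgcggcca

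The motif did not mark the lower genes as a set. Searched on both strands, CACGTG occurred in 8.21% of 914 promoters of lower genes and in 9.49% of 12664 promoters of all genes tested. The ERR core site AAGGTCA occurred in 4.38% and 3.24%, the AP-1 site TGAGTCA in 5.14% and 3.78%, the cyclic AMP response element TGACGTCA in 2.41% and 2.81%, and the GC box GGGCGG in 64.3% and 60.3%. Promoters were found for 643 of the 865 lower genes and for 9841 of all genes tested. A match describes these letters only.

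Some signalling and turnover genes were lower. Of 41 genes of intracellular growth signalling, 7 were lower and 0 higher (17.1% lower, against 6.31% of all genes). The count was 2 without TAC replicate 1, 0 with correction for GC content and length and 1 after quantile normalization. Akt1s1, the PRAS40 inhibitor of the kinase complex mTORC1, stood at 27.1, 29.8, 28.9 and 24.3 TPM in sham and 10.2, 15.1, 11.3 and 16.0 TPM in TAC (-1.03, adjusted p = 0.0149, and 0.0323 without TAC replicate 1). Rptor, the scaffold of the same complex, fell (-0.73, adjusted p = 0.0245), and so did Akt1, a kinase upstream of it (-0.68, adjusted p = 0.045), but neither passed without that replicate. Of 38 autophagy and lysosome genes 4 were lower and 0 higher (10.5% lower, against 6.31% of all genes). The list's median change was -0.24, against -0.16 for all genes. All 4 belong to the machinery that starts the autophagosome: Atg13 (-0.96), Atg4b (-1.01), Atg9a (-0.86) and Ulk1 (-0.71). Their limma adjusted p-values were 0.0149, 0.0162, 0.0255 and 0.0425. Atg13, Atg4b and Atg9a passed without TAC replicate 1 as well. With correction for GC content and length 0 of the 38 were lower. After quantile normalization 3 of the 38 were higher and 4 lower.

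Of 22 genes of muscle atrophy and ubiquitin ligases 5 fell (22.7% lower, against 6.31% of all genes). Among them were Trim54 and Trim55, ring finger proteins of the sarcomere (-0.81 and -0.68, adjusted p = 0.0443 and 0.029), and Fbxo31 (-1.05, adjusted p = 0.0281). Only Fbxo31 of the 5 passed without TAC replicate 1. With correction for GC content and length 0 of the 22 were lower, and after quantile normalization also 0. Proteostasis lists gave few calls in the fit of 8 libraries. Of 47 proteasome genes 1 fell (Psmd4, -0.63, adjusted p = 0.0352), or 2.13% against 6.31% of all genes. After quantile normalization 6 of the 47 proteasome genes were higher and 0 lower, against 2.36% and 2.27% of all genes. Of 24 heat shock genes 1 fell, Bag3, a co-chaperone that clears damaged filament proteins (-0.90, adjusted p = 0.0281). Of 32 genes of the endoplasmic reticulum stress response 1 rose, the chaperone Dnajb9 (15.9 to 26.6 TPM in sham, 29.9 to 41.4 TPM in TAC, 0.69, adjusted p = 0.0487). None of these 3 passed without TAC replicate 1.

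Some vessel cell genes were lower. Of 22 endothelial markers 5 fell and 0 rose (22.7% lower, against 6.31% of all genes). In the fit without TAC replicate 1, 2 of 22 were lower, against 2.85% of all genes. The endothelial markers summed to 971 to 1400 TPM in sham and 785 to 884 TPM in TAC, without overlap. Esam, an adhesion molecule of endothelial junctions, measured 24.4, 33.8, 40.9 and 35.8 TPM in sham and 12.3, 15.9, 12.2 and 14.6 TPM in TAC (-1.22 ± 0.18, adjusted p = 0.012, and 0.0248 without TAC replicate 1). Robo4, a guidance receptor of stable vessels, fell as well (-0.90, adjusted p = 0.0158, and 0.037 without it). Flt1 and Tie1, receptors for VEGF and of the angiopoietin system, fell (-0.91 and -0.73, adjusted p = 0.0412 and 0.0415) and did not pass without TAC replicate 1. The first defining markers Pecam1 and Cdh5 did not pass (-0.48 and -0.46, adjusted p = 0.166 and 0.0795). Of 16 tested members of the smooth muscle and pericyte list 3 fell (18.8% lower, against 6.31% of all genes). Of the 3, Notch4 is known mainly as an endothelial receptor. Smtn, the contractile filament protein smoothelin, stood at 134, 110, 111 and 89.3 TPM in sham and 53.5, 52.3, 49.0 and 46.9 TPM in TAC (-1.11, adjusted p = 0.012), and Notch4 and Notch3 fell (-1.17 and -0.58, adjusted p = 0.0274 and 0.0477). Smtn and Notch4 passed without TAC replicate 1, and Notch3 did not. With correction for GC content and length, 0 endothelial and 0 smooth muscle markers passed.

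Fibrosis and inflammation showed little. Of 38 extracellular matrix genes 0 rose and 2 fell: Col4a2, a basement membrane collagen (35.2 to 76.6 TPM in sham, 24.0 to 33.7 TPM in TAC, -1.01, adjusted p = 0.0309), and Col6a3 (-0.81, adjusted p = 0.0412). Both passed without TAC replicate 1. The list summed to 2436 TPM in TAC replicate 1 and to 794 to 1066 TPM in the other TAC libraries, against 1133 to 1359 TPM in sham. Fibroblast (17 tested), macrophage (22), cell cycle (29), interferon (27) and antioxidant (27) genes gave 0 calls in limma, in either direction and in both fits. With 8 libraries 1, 4, 3, 5 and 8 of them had an unadjusted p under 0.05, as did 3579 of all 13709 genes tested. Efemp1, a fibulin on the mesothelial list, rose from 1.65 to 3.02 TPM to 4.34 to 12.2 TPM (1.10, adjusted p = 0.0424). Its highest value was in TAC replicate 1, and without it the adjusted p was 0.0532.

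**Figure D4:**
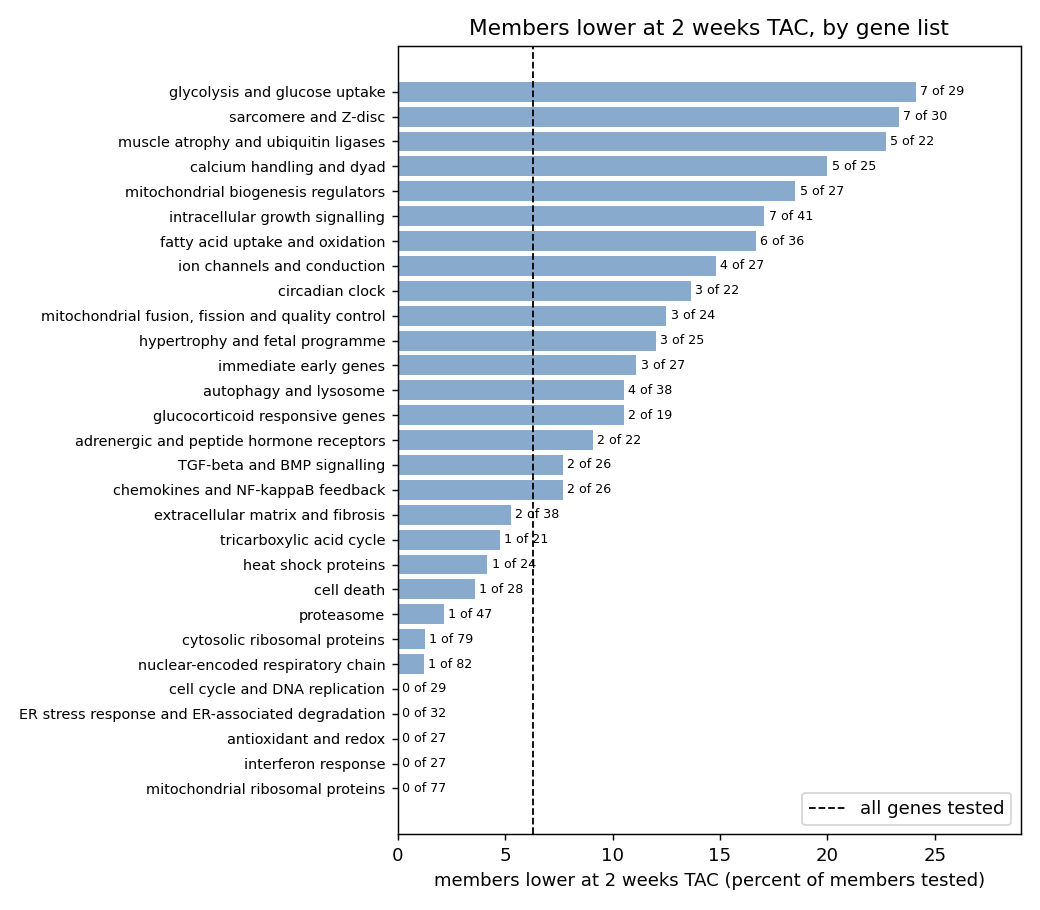
Percent of tested members that were lower at 2 weeks TAC for each pathway list (bars), with the counts, and the share of all genes tested that were lower, 6.31% (dashed line). Glycolysis with 7 of 29, the sarcomere with 7 of 30, atrophy genes with 5 of 22 and calcium handling with 5 of 25 stand at 20% or above, and 5 of the plotted lists have 0 lower members. With correction for GC content and length, which is not plotted, the sarcomere list had 1 lower member. The glycolysis, atrophy and calcium handling lists then had 0. The 13 mitochondrially encoded genes are not plotted, and 0 of them were lower.

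Among the largest falls with both fits past the test were genes with no common role. Ghrl, the peptide hormone ghrelin, measured 6.15, 6.90, 5.94 and 7.59 TPM in sham and 1.28, 2.01, 1.81 and 0.995 TPM in TAC. Its log2 change was -1.61 ± 0.18 (adjusted p = 0.01), and -1.50 with correction for GC content and length (adjusted p = 0.0374). Zbtb22, a zinc finger protein, stood at 4.46, 6.06, 8.96 and 10.5 TPM in sham and 1.11 to 1.87 TPM in TAC (-1.70, adjusted p = 0.012). Irx3, a transcription factor of the ventricular conduction system, fell from 3.81 to 7.19 TPM to 0.986 to 1.48 TPM (-1.47), and Eif2b4, a subunit of the exchange factor that recharges the initiation factor eIF2, from 21 to 34.2 TPM to 8.46 to 10.7 TPM (-1.40). Atcay (-1.53), the spindle checkpoint gene Mad1l1 (-1.48) and the adaptor gene Sh2d3c (-1.39) complete the 12 that the rule on size named, with Per1, Nfkbia, Myh7b, Plin4 and Kcnj11. Of these 12, Ghrl and Kcnj11 were past the test with correction for GC content and length.

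Genes that rose were fewer, and several are hard to count. Rnaset2b, a lysosomal ribonuclease gene, measured 17.4, 5.43, 3.73 and 14.5 TPM in sham and 61.5, 67.1, 62.2 and 65.2 TPM in TAC (2.75 ± 0.39, adjusted p = 0.012, and 0.0292 without TAC replicate 1). It has a near-identical copy, Rnaset2a, which was at 37.8 to 95.2 TPM in sham and 22.3 to 31.1 TPM in TAC, so reads could be split between them. The pair summed to 72.0 ± 22.5 TPM in sham (SD, n = 4) and 92.2 ± 5.79 TPM in TAC (n = 4), and those ranges overlapped. Rnaset2b made up 5.40% to 27.6% of the pair in sham and 66.7% to 73.4% in TAC. In the VCP transgenic shams of the same table its share ran from 4.18% to 89.7%, so the share varies among unloaded hearts as well.

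Further genes rose in both fits. Crygn, the lens-type crystallin gamma N, stood at 0.208 to 1.45 TPM in sham and 3.90 to 4.12 TPM in TAC (1.46, adjusted p = 0.012). Rab5if, a small membrane protein gene, rose from 10.6 to 32.1 TPM to 46.3 to 55.9 TPM (1.45, adjusted p = 0.0227), and Hist1h4i, a histone H4 gene, from 2.00 to 3.95 TPM to 5.23 to 7.35 TPM (0.97, adjusted p = 0.0227). All 3 passed with correction for GC content and length, at 0.0374 each. Saxo2, a microtubule protein gene (0.98, adjusted p = 0.0213), and Zfp985, a zinc finger gene (0.87, adjusted p = 0.0343), rose in both fits but not with the correction. Sly, a multicopy gene of the Y chromosome known from the testis, rose from 0.576 to 2.25 TPM to 5.42 to 9.37 TPM (1.67, adjusted p = 0.012), and its copies make its count uncertain. The Y chromosome held 17 of the 99 higher genes (17.2%) and 60 of the 13709 tested (0.438%). It held 14 of the 40 higher genes without TAC replicate 1. The predicted gene Gm38184 was listed at 0 in all 4 sham libraries and at 34.3, 25.1, 5.51 and 24.1 TPM in TAC.

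Transcripts that a heart should hardly make were also more frequent after TAC. A family of 11 predicted genes with sequence of satellite type, grouped after their values were seen, took 0.266% to 0.953% of TPM in sham and 1.32% to 3.75% in TAC. In the fit of 8 libraries 10 of the 11 were higher, by 1.89 to 2.14 on the log2 scale, and 0 were without TAC replicate 1. Of 1462 olfactory and vomeronasal receptor genes, 14.6% to 31.7% were above 0 TPM in a sham library and 60.1% to 81.2% in a TAC library. In contrast, the identifier ENSMUSG00000089855, which GENCODE release M21 does not list, took 10.3% to 13.5% of TPM in sham and 3.26% to 7.87% in TAC. These values moved with the groups in all 8 libraries. After TPM was rescaled to nuclear protein-coding genes, 1498 of 16960 genes tested passed, against 964 of 13709 as deposited. More genes reached the filter of 1 TPM after rescaling, so the counts are not over the same genes.

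The calls followed base composition. Lower genes had a median transcript GC content of 56.2% and higher genes of 43.5%, against 50.4% for all genes tested. Higher genes were also short, with a median of 797 bases against 1996 for all. Genes were cut into 10 groups of equal size by GC content. From the lowest group to the highest, the median log2 change went from 0.09 to -0.43 (0.06 to -0.46 without TAC replicate 1), and the number of lower genes from 9 to 255. Across 13531 genes, which are not independent replicates, Spearman's rho of the change with GC content was -0.42. The log2 contrast between the highest and lowest group was -0.05 to 0.03 in each sham library and -0.62 to -0.43 in each TAC library. Correction of every library for GC content and length left 33 genes past the test, 0.241% of those tested, 15 higher (0.109%) and 18 lower (0.131%). Of the 33, 26 passed in both uncorrected fits too. Those past the test in all 3 fits with a gene name included Myh7, Kcnj11, Slc27a1, Ghrl, Tmc6, Lrrc47, Dnmt3a and Rassf8, which were lower, and Rnaset2b, Crygn, Rab5if, Hist1h4i, Dcdc5 and Sly, which were higher. Tmc6, Lrrc47, Rassf8, Dcdc5 and the DNA methyltransferase gene Dnmt3a were named after their values were seen. Without TAC replicate 1 the corrected fit had 9 calls (0.0669%), 5 higher (0.0372%) and 4 lower (0.0297%). Of the genes just listed by name, Tmc6 alone was among these calls. Myh7, Kcnj11, Slc27a1, Ghrl and the rest of that list did not pass in it. What set the GC trend was not tested, and biology that tracks GC content cannot be told apart from library preparation here.

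**Figure D5:**
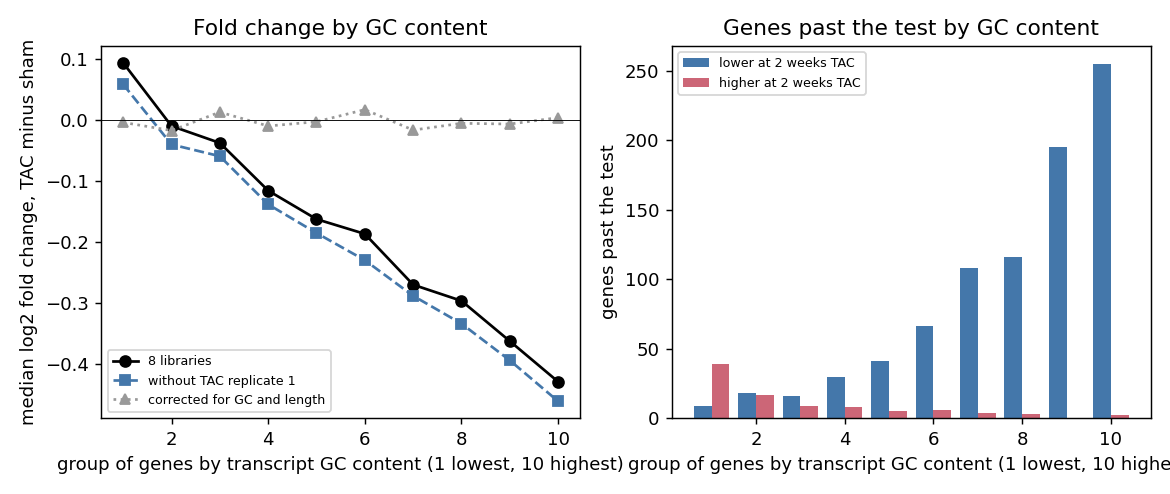
Left, median log2 fold change (TAC minus sham) of genes in 10 groups of transcript GC content (1 lowest), for 8 libraries, without TAC replicate 1, and after correction for GC content and length. Right, number of genes past the test in each group. The median falls from 0.09 to -0.43 across the groups with 8 libraries and from 0.06 to -0.46 without TAC replicate 1, and is flat after correction, while lower genes rise from 9 to 255 per group.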

How the data were processed

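Left ventricular RNA was purified (Qiagen miRNeasy) and made into Illumina TruSeq Stranded mRNA libraries, per the labels' protocols. The authors deposited TPM values for 30735 genes, 1 column per library. The submitters' processing notes name Trimmomatic 0.35, kallisto 0.43.1, STAR 2.5.4b, DESeq2 and GRCm38. Which of these made the table is not stated there. TPM keeps no depth, so no counting interval can be given. GENCODE release M21 named 30074 identifiers.

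The 8 libraries were fitted alone with limma 3.58.1 (R 4.3.3) on log2(TPM + 1), with a variance trend and robust moderation. A gene entered with 1 TPM or more in at least 3 libraries. Tests were two-sided, and p-values were adjusted by Benjamini and Hochberg's method over every gene tested. Changes on this scale understate those of low genes. The correction for GC content and length removed a loess trend (span 0.3) from each library's deviations. The test was checked on simulated data. A count model, foreseen for counts, was not used.

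Members, the 46 gene lists and the tests were chosen with earlier results of these data known. The text names the usual load markers with Vcp and Myl7, at most 12 genes per direction by size of change past the test in both fits (mean of at least 2 TPM, protein-coding, no overlap, no predicted name), the 5 most abundant per direction, at most 5 per direction of each list and of the genes past the test in 1 fit only, and the first markers of each cell type. Alternatives tried were other pseudocounts, filters, scalings, corrections, a replicate block, a fit of all 4 groups of the table, and leaving out each library. Some results are not reported here.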

Additional observations from a re-analysis of the deposited data

Results flagged for a closer look

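In groups of 4 libraries, single values far from the other 3 were found for 19 of 236 groups checked. Dixon's criterion on the gap over the range was used, on log2(TPM + 1). On that scale Nppa (5174 TPM) and Myl7 (1546 TPM) in TAC replicate 1 were not flagged, as the other 3 TAC values were also widely spread. Chance flags about 1 in 20 groups. No explanation was tested for any of them.

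In TAC replicate 1, Vcp stood apart at 119 TPM (high), Myh7b at 15.5 TPM (low), Csnk1d at 28.6 TPM (high), Mlycd at 7.98 TPM (low) and Efemp1 at 12.2 TPM (high). In TAC replicate 2, Myh7 was high at 232 TPM. In TAC replicate 3, Sly was high at 9.37 TPM and Adcy6 low at 9.31 TPM. In TAC replicate 4, Eif2b4 was low at 8.46 TPM and Ppard high at 10.3 TPM.

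Sham replicate 1 was low for the endothelial gene Robo4 (10.3 TPM) and the lymphatic receptor gene Flt4 (3.38 TPM). It was also low for the satellite-like predicted genes Gm10717 (54.0 TPM), Gm10719 (142 TPM), Gm10801 (93.0 TPM) and Gm10720 (31.4 TPM). In sham replicate 4, Kcnj11 was low at 22.0 TPM, Spg7 low at 18.5 TPM and Gm10491 high at 1.29 TPM, where the other 3 sham libraries list it at 0.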

How the results depend on the processing

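Against 964 genes past the test, 988 and 978 passed with pseudocounts of 0.1 and 0.5, 988 with the filter at a mean of 5 TPM and 853 without trend and robust moderation. Counts moved to 156 without a filter, 635 after quantile normalization, 1498 after rescaling to nuclear protein-coding genes, 33 with correction for GC content and length, 147 for GC content alone and 543 for length alone (the last pair chosen after seeing the data). The rescaled fit tested 16960 genes and the main fit 13709. Leaving out 1 library gave 49 to 2148. Fitted with all 4 groups of the table, limma called 0 genes, with 1773 at an unadjusted p under 0.05.

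Without TAC replicate 1, 423 genes passed. The count was 1 without a filter, 739 with the filter at a mean of 5 TPM, 183 after quantile normalization, 1040 after rescaling, 126 after median centring, 9, 6 and 108 with the corrections for both, GC content alone and length alone, and 234 without trend and robust moderation. Leaving out a further library gave 0 to 1932 (26 without sham replicate 3, 1932 without sham replicate 4, 7, 6 and 0 without TAC replicates 2, 3 and 4). At 0, limma had 2360 genes at an unadjusted p under 0.05.

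Deviations of same-numbered libraries correlated by -0.01, 0.11, -0.06 and 0.04, not above 0.1 in every pair, so the numbers were not taken to pair them. A replicate block gave 659 calls with 8 libraries and 1376 with 7. With the GC and length correction the block gave 3 and 0 (2573 at an unadjusted p under 0.05). The causes were not tested.

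Values whose sign turned, none past the test, were Nppb without sham replicate 1 (-0.24) and TAC replicate 1 (-0.32; range when 1 library was left out -0.32 to 0.57), Atp2a2 after quantile normalization (-0.23) and without sham replicate 4 (-0.0044; range to 0.35), Col1a1 without TAC replicate 1 (-0.27; range to 0.61), and Vcp without sham replicate 3 (-0.02), sham replicate 4 (-0.13) and TAC replicate 1 (-0.31; range to 0.15). The mitochondrial share kept its direction at 4.96 to 8.58 percentage points when 1 library was left out, and was 2.38 with unlisted identifiers removed from the total. With unknown depth, low TPM values may rest on few reads.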

Other observations

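Several lists not described above gave 1 or 2 calls each, near the 6.31% of all genes that were lower. The lower shares were 9.09% for adrenergic and peptide hormone receptors and 7.69% for TGF-beta and BMP signalling. They were 7.69% for chemokine and NF-kappaB genes and 3.57% for cell death genes. With correction for GC content and length 0 members of these lists passed. Of 22 adrenergic and peptide hormone receptor genes, 2 fell, the adenylyl cyclases Adcy6 (16.8 to 24.5 TPM in sham, 9.31 to 13.7 TPM in TAC, -0.79, limma adjusted p = 0.0308) and Adcy5 (-0.70, adjusted p = 0.0402). They are the main cyclases of the cardiac myocyte, and neither passed without TAC replicate 1. Of 26 TGF-beta and BMP signalling genes 2 fell, the co-receptor gene Tgfbr3 (-0.83, adjusted p = 0.0415) and the receptor gene Acvr1b (-0.78, adjusted p = 0.0355). Of 26 chemokine and NF-kappaB genes 2 fell, Nfkbia and Cxcl1, a neutrophil chemokine (1.13, 7.37, 6.58 and 10.6 TPM in sham, 0.361 to 1.13 TPM in TAC, -1.78, adjusted p = 0.0485). Of Tgfbr3, Acvr1b, Cxcl1 and Nfkbia, Nfkbia alone passed without TAC replicate 1. Of 28 cell death genes 1 fell, the apoptosis inhibitor Birc3 (-1.05, adjusted p = 0.0274, and 0.0402 without TAC replicate 1).

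A vascular and a transport gene passed with 8 libraries only. Sox17, an arterial endothelial transcription factor, stood at 3.73, 5.97, 15.3 and 16.6 TPM in sham and 1.30 to 2.39 TPM in TAC (-1.77, adjusted p = 0.0313, and 0.066 without TAC replicate 1). Slc7a5, a large neutral amino acid transporter, was at 8.42, 1.29, 6.31 and 5.09 TPM in sham and 0.667 to 0.726 TPM in TAC (-1.72, adjusted p = 0.0281, and 0.0562 without it). Sham replicates 3 and 4 were the highest for Sox17 and sham replicate 2 the lowest for Slc7a5, while the 4 TAC values of Slc7a5 lay close together.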
